A study of Homo sapiens with 7 samples.

Results

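Polycomb repressive complex 2 (PRC2) is the histone methyltransferase that places the repressive methyl mark on lysine 27 of histone H3. EZH2, or its homologue EZH1, carries the catalytic SET domain and is active only together with SUZ12 and EED, while RBBP4 and RBBP7 are histone-binding WD40 proteins shared with other chromatin complexes. The accessory subunits define the forms of the complex: MTF2 and PHF19 belong to the form that also holds other Polycomb-like proteins, and JARID2 and AEBP2 belong to the other form. PRC2 binds the 5′ part of the long non-coding RNA HOTAIR, and EZH2 is known to be high in proliferating tumour cells. The mRNA levels of these 10 genes were compared between ACHN cells with and without HOTAIR overexpression. The genes were chosen by name, without use of their measured values, from the 34809 gene names on the array, and 14 probes carried 1 of the 10 names.

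ACHN is a human renal cell adenocarcinoma line. It was transduced with a pBabe-hygro retrovirus carrying HOTAIR cDNA (ACHN-HOTAIR, 3 samples) or with the same vector left empty (ACHN-EV, 4 samples), and both groups went through hygromycin selection. Total RNA of each sample was labelled with Cy3 and hybridised to 1 single-colour Agilent array. Neither the labels nor the methods say whether the samples of a group came from separate cultures or transductions, so the p-values measure the spread between these samples, which may be technical. ACHN-HOTAIR cells express HOTAIR stably from a viral vector, and the methods do not say whether pools or clones were used. The arrays measured mRNA, not PRC2 protein, its activity or the histone mark.

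The HOTAIR probe followed the labels. It exceeded the background clearly in 0 of 4 ACHN-EV samples and in all 3 ACHN-HOTAIR samples. The mean level was -6.69 ± 0.39 (SD, n = 4) in ACHN-EV and -2.98 ± 0.35 (SD, n = 3) in ACHN-HOTAIR cells. With each EV array set no lower than its dimmest probe well above background, this is at least 9.46-fold higher. Without that bound the log2 difference was 3.71 (limma adjusted p = 0.00162). The probe was admitted to the test by the HOTAIR arrays only, so its difference is a description only. Levels are given throughout as the log2 of the processed intensity minus the 75th percentile of the same array, which lay between 522.5 and 649.1 intensity units. A level of 0 is therefore that of a spot at the 75th percentile, and levels of different probes were not set against each other, since probes differ in brightness. Of 9 markers of kidney epithelium and renal carcinoma, 8 were well above background on all 7 arrays, among them the nephron transcription factors PAX8, PAX2 and LHX1, while CA9 was above background on 0 arrays. The largest differences among them were those of LHX1 (log2 difference 0.23), the adhesion molecule EPCAM (-0.23, limma adjusted p = 0.881) and the keratin KRT8 (-0.18). EPCAM was lower without overlap between groups, as were 3.72% of all genes measured on every array. Of 8 markers of blood, endothelium, liver and fibroblasts, 0 were above background on every array of a group. CDH5, an endothelial cadherin, was above background on 4 arrays, PTPRC, a leukocyte marker, on 3, PECAM1 on 1 and the other 5 on 0. EV 2 and HOTAIR 3 stood apart from the other arrays. The first principal component, computed with the group means left in, took 51.8% of the variance. It placed EV 2 at 74.0 and HOTAIR 3 at 21.1, against -29.4 to -8.50 for the rest. All EV arrays lay in 1 row of the slide and all HOTAIR arrays in the other, so an effect of the row and 1 of HOTAIR cannot be told apart.

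The 60-base probes define what was measured. For the members on which the results turn, 30 bases of the probe are shown 5′ to 3′ as the array design gives them, with the letters AATAAA, the canonical polyadenylation signal, in capitals where a probe holds them. Only 2 of the 14 probes did, the brightest RBBP4 probe and the JARID2 probe.
EZH2 probe A_33_P3252196, bases 1 to 30: cagctgcaaagtgttttgtaccagtgaatt
EZH1 probe A_23_P428219, bases 1 to 30: atatcagggataccctcaagctggactgtg
SUZ12 probe A_23_P100883, bases 1 to 30: cttgattggtaagctctccaaatgatgagt
RBBP4 probe A_33_P3338559, bases 23 to 52: tgcttaaaatggAATAAAttgcttttctac
RBBP4 probe A_23_P326691, bases 1 to 30: agtttcctcttggtttcttcagttaagtca
RBBP4 probe A_24_P468810, bases 1 to 30: cagtggcattaaggatggtctcttaatcct
RBBP4 probe A_33_P3232562, bases 1 to 30: atgctatatccccaagtttttcagactcat
RBBP7 probe A_23_P114221, bases 1 to 30: aatgtaagtggggtggcttatggcttcttt
JARID2 probe A_23_P214876, bases 24 to 53: cagtatgtgtggAATAAAaaagggaaactg
The probes of the homologues EZH1 and EZH2, and of RBBP4 and RBBP7, had unlike sequences. They were compared with each other only, so whether a probe also reads the transcript of the homologue was not tested. The longest run of letters shared by any pair of the 14 probes on either strand was 10 bases, between a probe of AEBP2 and 1 of RBBP4.

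All 14 probes were well above background on all 7 arrays, and none passed an adjusted p of 0.05 between ACHN-HOTAIR and ACHN-EV cells (limma, Benjamini-Hochberg adjustment over 20419 probes). The background share in this comparison was 0.167% of all tested probes, so with 14 probes a count of 0 was also the background. At an unadjusted p of 0.05 the count of member probes was 0 as well, against 5.85% of all probes, and on 0 of the 14 probes did the groups fail to overlap, against 7.7% of all probes. Taking the brightest probe of each gene, 5 genes had a log2 difference above 0 and 5 below, with a median of -0.0021 and a range from -0.21 to 0.10, while over all 16664 genes tested the median was 0.011 and 52.4% lay above 0. The 95% confidence intervals of all 14 probes lay within a log2 difference of -1 to 1, and those of 8 of the 10 genes within -0.5 to 0.5. The intervals are not adjusted for the number of probes. The rank product, which the study's methods name, also called 0 members, and the exact two-sided Mann-Whitney test gave p-values from 0.229 to 1, where 0.0571 is the smallest that 4 against 3 arrays allow.

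**Figure D1:**
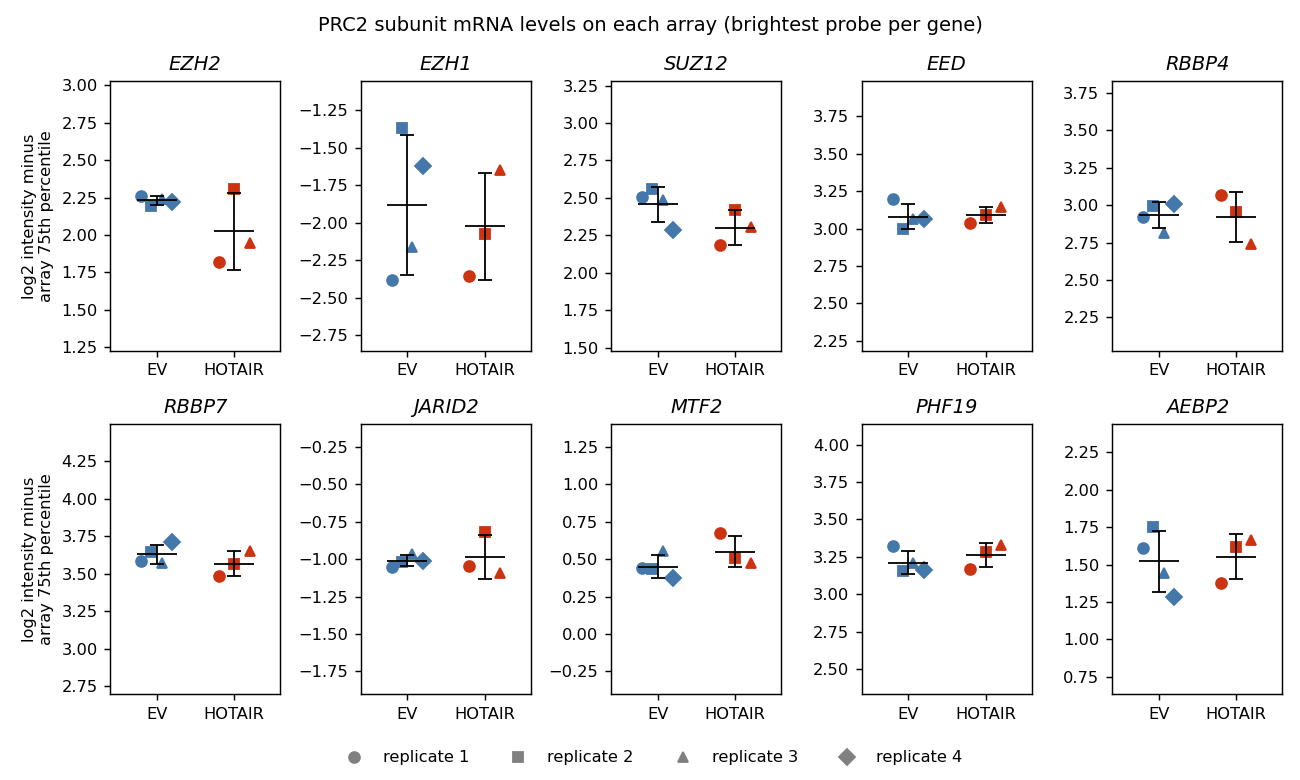
Levels of the 10 PRC2 subunits on each array for the brightest probe of each gene, in log2 intensity relative to the array's 75th percentile. Blue points are EV arrays (n = 4), red points are HOTAIR arrays (n = 3), horizontal bars are group means and error bars are 1 SD. Every panel spans the same log2 range, and in every panel the groups overlap.

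Among the catalytic subunits, EZH2 had the largest absolute difference of the 10 genes by their brightest probes, and it did not pass the test. The dimmer RBBP4 probes A_23_P326691 (0.30) and A_33_P3232562 (0.25) had larger ones. Its probe lies on chr7:148504505-148504564 (hg19, minus strand). The level was 2.26, 2.20, 2.24 and 2.22 on EV 1 to EV 4 and 1.82, 2.31 and 1.95 on HOTAIR 1 to HOTAIR 3. The EV arrays were close together, while HOTAIR 2 lay above all of them and HOTAIR 1 and HOTAIR 3 below all of them. The mean was 2.23 ± 0.03 (SD, n = 4) against 2.02 ± 0.26 (SD, n = 3), a log2 difference of -0.21 (SE 0.14, 95% interval -0.52 to 0.11, limma adjusted p = 0.957). As a fold this is 0.866 with an interval from 0.696 to 1.08. The value depended on single arrays: without HOTAIR 2 the log2 difference was -0.35 (limma adjusted p = 0.9998) and without HOTAIR 1 it was -0.10.

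Part of the spread of EZH2 lay within 1 array. The probe was spotted at 2 places on each array, and on HOTAIR 1 the spots read 1.59 and 2.04, a gap of 0.45. On each of the other 6 arrays the SD between the spots was 0.050 or less, against 0.32 on HOTAIR 1. Neither spot was marked as an outlier by the scanner software. With only the first spot of each such pair the log2 difference was -0.27, and with only the second it was -0.14. HOTAIR 1 as a whole was not unusual in this respect, since 4.87% of its 4821 paired spots differed by more than 0.4, within the range of 3.38% to 10.9% over the arrays. Of the 28 pairs of member spots over all arrays, 2 differed by more than 0.4, and both were on HOTAIR 1: this pair of EZH2, and a pair of RBBP4 given with that gene.

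EZH1, the homologue that is typical of cells that do not divide, was measured far less steadily. Its probe (chr17:40852674-40852733, hg19, minus strand) read -2.38, -1.37, -2.16 and -1.62 on the EV arrays and -2.35, -2.07 and -1.65 on the HOTAIR arrays. The high readings were on EV 2, EV 4 and HOTAIR 3, and both groups covered nearly the same range. The mean was -1.88 ± 0.47 (SD, n = 4) against -2.02 ± 0.36 (SD, n = 3), with a log2 difference of -0.14 (95% interval -0.79 to 0.51, limma adjusted p = 0.993). This is the widest interval among the brightest probes of the 10 genes and runs from 0.578-fold to 1.43-fold. Its pooled SD within groups, 0.43, was at the 83.7th percentile of all tested probes, and it was the only gene of the 10 above the median SD of 0.22. EV 2 and HOTAIR 3, the arrays that stood apart, deviated by 0.51 and 0.38 from their group means, and without both the log2 difference was -0.16. Single arrays set its size and sign: it was 0.03 without EV 2, 0.02 without HOTAIR 1, -0.33 without HOTAIR 3, -0.31 without EV 1, -0.23 without EV 3 and -0.05 without EV 4.

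SUZ12, the scaffold that holds the catalytic subunit in an active form, was read by the most spots together with RBBP7, because its probe (chr17:30327536-30327595, hg19, plus strand) was spotted 10 times on each array. The array means were 2.50, 2.56, 2.48 and 2.29 in ACHN-EV and 2.19, 2.42 and 2.30 in ACHN-HOTAIR cells. EV 4 lay below HOTAIR 2 and HOTAIR 3, so the groups overlapped, while EV 1, EV 2 and EV 3 lay above all HOTAIR arrays. Without EV 4 the log2 difference was -0.21 (limma adjusted p = 0.726), and without HOTAIR 1 it was -0.10. The SD between the spots of an array had a median of 0.055 and was highest on EV 4, at 0.11 over the 9 spots used. The SD between arrays of a group was 0.12 in both groups. The spread between arrays was therefore larger than the spread between spots. The means were 2.46 and 2.30, with a log2 difference of -0.16 (95% interval -0.42 to 0.11, limma adjusted p = 0.983). RefSeq lists 2 pseudogenes of SUZ12, on chromosomes 14 and 17, and whether the probe reads them was not tested.

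EED, the WD40 subunit that binds the trimethylated lysine, gave the smallest absolute difference of the 10 genes. The probe (chr11:85989629-85989688, hg19, plus strand) read 3.19, 3.00, 3.06 and 3.07 on the EV arrays and 3.04, 3.09 and 3.14 on the HOTAIR arrays. All HOTAIR values fell inside the EV range. The log2 difference was 0.01 (95% interval -0.22 to 0.25, limma adjusted p = 0.996), which in folds is 0.856 to 1.19.

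**Figure D2:**
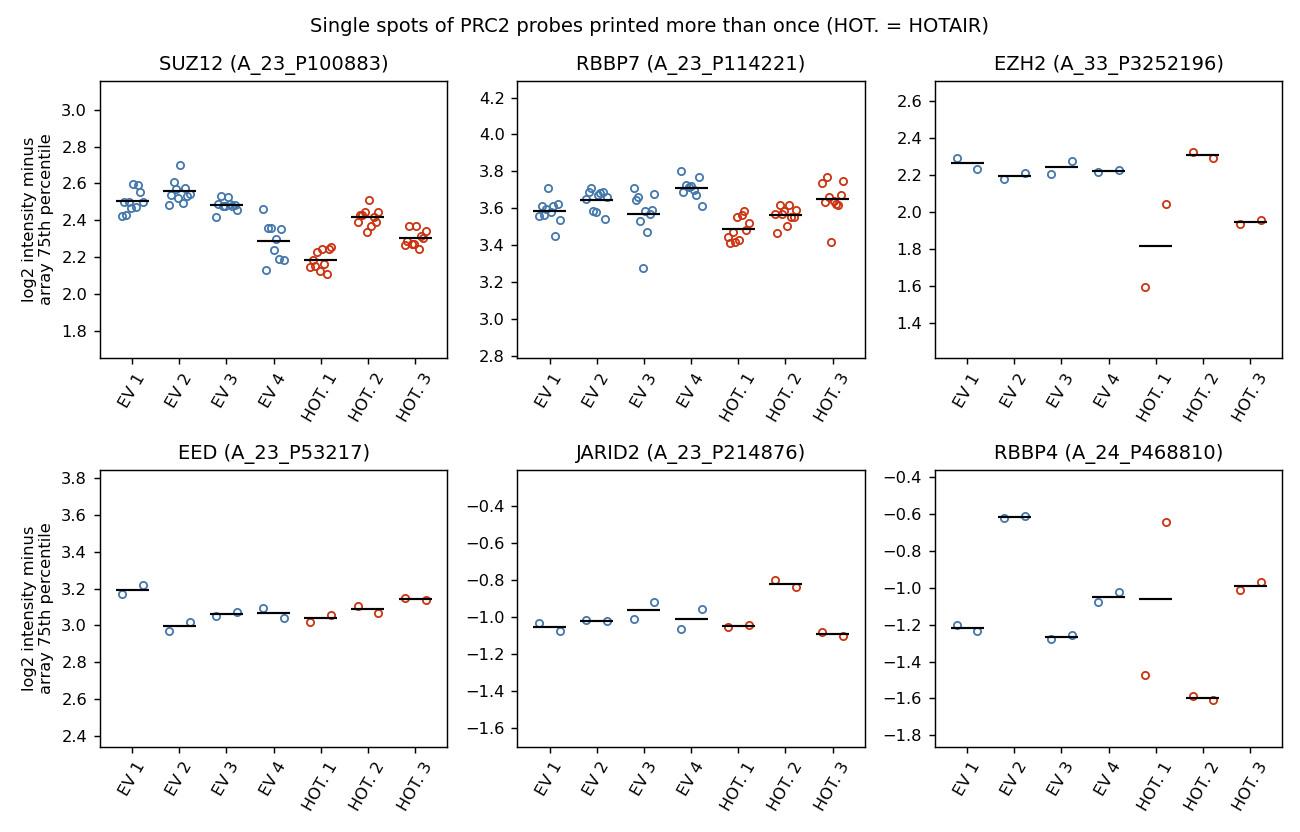
Single spots of the 6 PRC2 probes printed more than once per array, in log2 intensity relative to the array's 75th percentile. Open circles are spots (10 per array for SUZ12 and RBBP7 less outliers, 2 for the others), blue for EV and red for HOTAIR, and black lines are array means. The spots of EZH2 and of the RBBP4 probe A_24_P468810 lie apart on HOTAIR 1, at 1.59 and 2.04 for EZH2 and at -1.48 and -0.64 for RBBP4.

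RBBP4 and RBBP7 are closely related histone chaperones. RBBP7 was measured by 10 spots (chrX:16863010-16863069, hg19, minus strand), with array means of 3.58, 3.65, 3.57 and 3.71 in ACHN-EV and 3.49, 3.56 and 3.65 in ACHN-HOTAIR cells. HOTAIR 1 and HOTAIR 2 lay just below all EV arrays and HOTAIR 3 among them. The log2 difference was -0.06 (95% interval -0.30 to 0.17, limma adjusted p = 0.993), and the pooled SD of 0.072 was at the 2.8th percentile of all tested probes.

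RBBP4 was read by 4 probes, and these did not move together. The brightest, A_33_P3338559 (chr1:33146199-33146258, hg19), holds the letters AATAAA shown above, and whether they act as a signal was not tested. It read 2.92, 3.00, 2.81 and 3.01 in ACHN-EV and 3.07, 2.96 and 2.74 in ACHN-HOTAIR cells, a log2 difference of -0.02 (95% interval -0.29 to 0.26). A_23_P326691, on the same chromosome at chr1:33145808-33145867, read 1.55, 2.45, 1.92 and 2.31 against 2.36, 2.25 and 2.46, a log2 difference of 0.30 (95% interval -0.21 to 0.81, limma adjusted p = 0.980). The EV arrays of this probe spread over nearly a whole log2 unit, with EV 1 low, while the HOTAIR arrays were close together. The brightest probe, which lies close by on the chromosome, showed no such spread in ACHN-EV cells.

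The other RBBP4 probes differed again. A_24_P468810 (chr1:33151434-33151493, hg19) read -1.22, -0.62, -1.27 and -1.05 against -1.06, -1.60 and -0.99, a log2 difference of -0.18 (95% interval -0.67 to 0.32, limma adjusted p = 0.993). EV 2 was its highest array and HOTAIR 2 its lowest, and its value on HOTAIR 1 is the mean of discordant spots at -1.48 and -0.64. A_33_P3232562 carries the name RBBP4 but is placed by the array annotation on chr6:57840752-57840811 (hg19, minus strand), whereas RBBP4 is on chromosome 1. RefSeq lists 7 RBBP4 pseudogenes, 2 of them on chromosome 6, and whether this probe reads one of them was not tested. It read -0.05, 0.10, 0.33 and 0.38 in ACHN-EV and 0.57, 0.44 and 0.31 in ACHN-HOTAIR cells. HOTAIR 1 and HOTAIR 2 lay above all EV arrays and HOTAIR 3 below EV 3 and EV 4. The log2 difference of 0.25 (95% interval -0.08 to 0.58) had the lowest adjusted p of the 14 probes, 0.939 (limma).

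**Figure D3:**
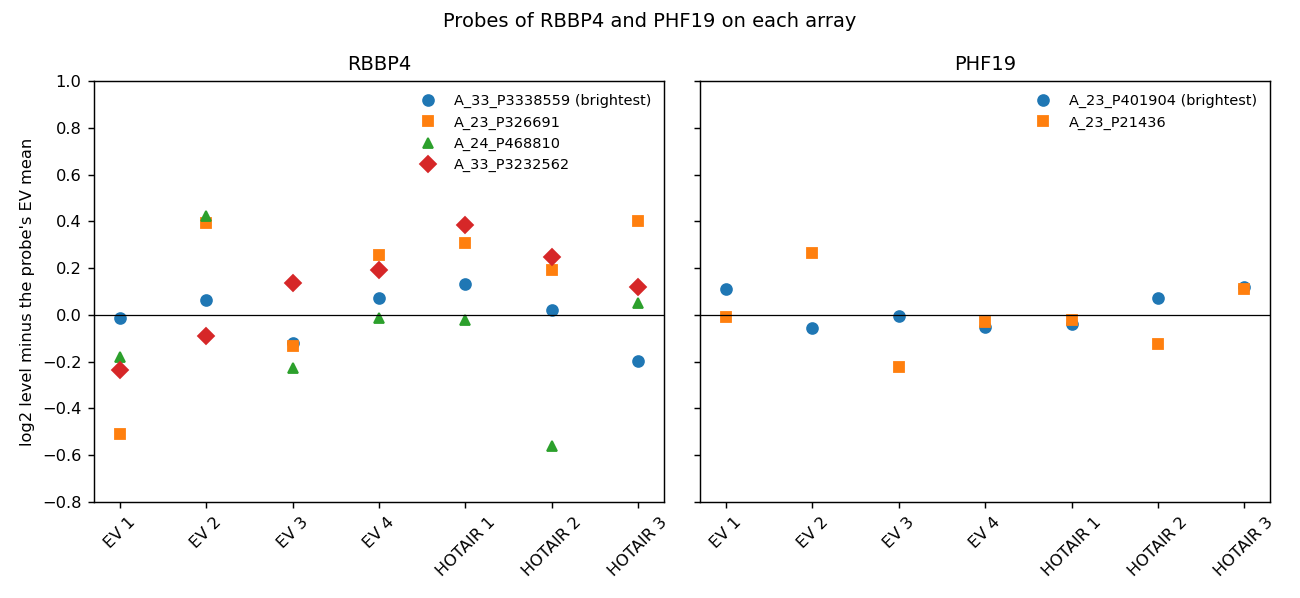
The 4 probes named RBBP4 and the 2 named PHF19 on each of the 7 arrays, as the log2 level minus the same probe's mean over the EV arrays. Points are array values and colours are probes. The RBBP4 probes scatter differently from each other, from -0.56 on HOTAIR 2 to 0.42 on EV 2, both for A_24_P468810, while the brightest probes of both genes stay closer to 0.

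Among the accessory subunits, JARID2, a Jumonji family protein without demethylase activity, was the steadiest in ACHN-EV cells. Its probe (chr6:15521805-15521864, hg19, plus strand) read -1.05, -1.02, -0.96 and -1.01 on the EV arrays and -1.05, -0.82 and -1.09 on the HOTAIR arrays. HOTAIR 2 was the highest and HOTAIR 3 the lowest of all 7 arrays. The log2 difference was 0.02 (95% interval -0.23 to 0.28, limma adjusted p = 0.993). AEBP2, a zinc finger protein of the same form of PRC2, read 1.61, 1.75, 1.44 and 1.28 against 1.38, 1.61 and 1.66 (chr12:19672916-19672975, hg19, plus strand). Its groups covered much the same range, with a log2 difference of 0.03 (95% interval -0.31 to 0.37, limma adjusted p = 0.993).

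MTF2 and PHF19 are Polycomb-like proteins that help to bring PRC2 to its target genes. MTF2 (chr1:93602318-93602377, hg19, plus strand) had the largest positive difference among the brightest probes. It read 0.44, 0.44, 0.55 and 0.37 on the EV arrays and 0.67, 0.51 and 0.47 on the HOTAIR arrays. HOTAIR 1 was above all EV arrays, and the others lay inside the EV range. The log2 difference was 0.10 (95% interval -0.15 to 0.35, limma adjusted p = 0.993), from 0.904-fold to 1.27-fold.

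PHF19 was read by 2 probes, which the array annotation assigns to different transcript variants. The brighter, A_23_P401904 (chr9:123631999-123632058, hg19), read 3.32, 3.16, 3.21 and 3.16 against 3.17, 3.28 and 3.33, a log2 difference of 0.05 (95% interval -0.19 to 0.29, limma adjusted p = 0.993). The other, A_23_P21436 (chr9:123618245-123618304, hg19), read 1.02, 1.30, 0.81 and 1.00 against 1.01, 0.91 and 1.14, a log2 difference of -0.01 (95% interval -0.34 to 0.31). The HOTAIR arrays of this second probe lay inside the EV range. Neither variant differed beyond the spread between arrays, and the difference between the variants was not tested.

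**Figure D4:**
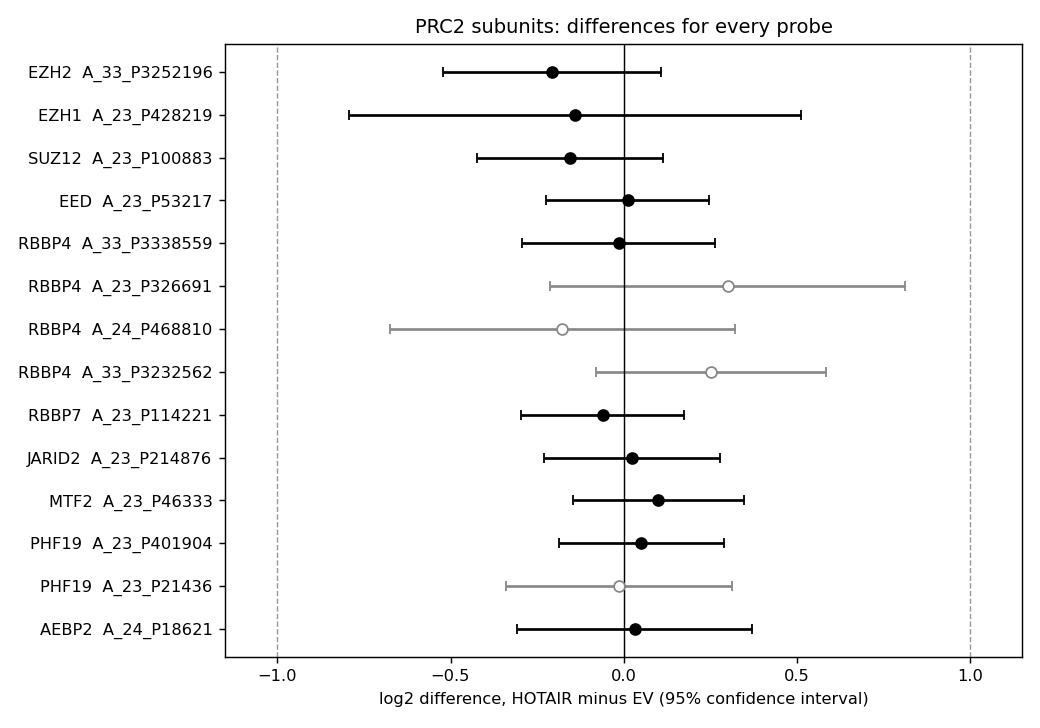
Log2 difference between ACHN-HOTAIR and ACHN-EV cells for each of the 14 PRC2 probes, with 95% confidence intervals from limma. Filled points are the brightest probe of each gene, open grey points are its other probes, the solid line is no difference and the dashed lines are a log2 difference of -1 and 1. Every interval covers 0, from the narrow ones of EED and RBBP7 to those of EZH1 and the RBBP4 probe A_23_P326691.

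The subunits did not vary as 1 unit from array to array. After subtracting group means, all pairs of members were compared by their brightest probes over the 7 arrays. The highest Pearson correlation was 0.919, for EED and PHF19 (Spearman 0.929). The lowest was -0.877, for MTF2 and RBBP7 (Spearman -0.929). Both were picked as the extremes of all pairs and are not read as relations. EZH2 and JARID2 correlated at 0.863 (Spearman 0.75), where HOTAIR 2 was high for both, but at 0.625 without the 2 arrays farthest from the median of EZH2. EZH2 and SUZ12 correlated at 0.589, and at -0.0245 without those arrays. EZH2 and EED, partners in the core, correlated at 0.206. These values come from the same 7 arrays with the same scaling factor and are given as a description. The genes whose array-to-array pattern was most like that of EZH2 were C14orf166 (Pearson 0.980), MDM1 (0.974), C6orf35 (0.965) and CDCA7 (0.962), followed by a transcript known only by its database number. JARID2 was the member nearest to EZH2, in place 90 of that order. The order is a search over all genes tested on 7 arrays, so its top values are extremes and are not read as relations. EZH2 deviated most on HOTAIR 2 (0.29) and HOTAIR 1 (-0.21), and the order was not recomputed without these arrays.

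What the members share in sequence was looked at in their promoters, taken from RefSeq (GRCh38.p14, from 250 bases before to 50 bases after the start). All 10 genes matched, with 15 promoters, of which the 2 of RBBP4 overlap. The letters of an E2F-type site, searched as TTTGGCGC, TTTCCCGC, TTTCGCGC and TTTGCCGC on both strands, were found in 6 of the 15, in AEBP2, EZH1, EZH2, MTF2, PHF19 and SUZ12, against 3.31% of all 35116 promoters of the same length. The letters CCAAT, on either strand, were found in 10 of the 15, against 34.6% of all promoters. The member promoters held from 16 to 54 CpG dinucleotides, with a median of 40, where the median over all promoters was 14. Each of the E2F-type words itself contains a CpG, and the shares above were not matched for CpG content. A match is a description of the letters and not a bound site. The EZH2 promoter with the most matches (chr7:148884242-148884541, minus strand) is shown because EZH2 had the largest absolute difference among the brightest probes. The E2F-type match and the 4 CCAAT or reverse ATTGG matches are in capitals.
EZH2 promoter: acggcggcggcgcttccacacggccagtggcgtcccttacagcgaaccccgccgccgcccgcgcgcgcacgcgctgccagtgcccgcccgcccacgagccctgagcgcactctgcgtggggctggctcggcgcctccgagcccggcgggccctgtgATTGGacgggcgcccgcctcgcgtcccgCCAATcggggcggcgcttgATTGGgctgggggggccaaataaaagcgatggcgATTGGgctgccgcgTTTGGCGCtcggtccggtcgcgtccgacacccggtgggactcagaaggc

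The chromatin regulators that work beside or against PRC2 were described in the same way, together with PRC2 target and proliferation genes, 93 tested genes in all. Of these, 0 passed the adjusted p of limma, against 0.18% of all 16664 genes. Of the 91 that were well above background on all 7 arrays, 5 had an unadjusted p under 0.05, against 5.48% of all such genes, and 8 did not overlap between groups, against 7.75%. These shares lie near those of all genes. Of 5 other PRC2-associated proteins, 4 were tested. PHF1, the third Polycomb-like protein, had a log2 difference of -0.14 (95% interval -0.45 to 0.16), EPOP had 0.10 and LCOR had -0.06. EZHIP, an inhibitor of PRC2, was above background on 0 arrays. Among 21 of 22 tested subunits of PRC1, the complex that ubiquitinates histone H2A, 11 lay above 0 and the median was 0.0039. The widest of these were KDM2B at -0.33 (95% interval -0.70 to 0.05, limma adjusted p = 0.919), PCGF6 at -0.25 and CBX2, a reader of the PRC2 mark, at 0.23. In no PRC1 gene did the groups fail to overlap.

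The enzymes that act on the same lysine were close to the members. KDM6A, which removes the methyl mark, had a log2 difference of -0.11, and the acetyltransferases EP300 and CREBBP had -0.11 and -0.04, with adjusted p = 0.993 for each (limma). KDM6B, the other demethylase, was above background on 0 arrays. Of 5 tested PR-DUB genes, whose complex removes the PRC1 mark, ASXL1 was higher without overlap, as were 4.04% of all genes measured on every array, with means of 0.83 and 1.01 and a log2 difference of 0.18 (95% interval -0.04 to 0.40, limma adjusted p = 0.926). BAP1, its catalytic subunit, had 0.18 with an interval from -0.55 to 0.92, and ASXL2 had -0.10. Among 18 genes whose products share RBBP4 or RBBP7 with PRC2, 8 lay above 0 and the median was -0.018. The largest values there were those of SIN3B (0.35), CHD4 (0.20) and MBD3 (-0.14).

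The SWI/SNF remodellers, which oppose Polycomb, had log2 differences above 0 for 3 of 15 genes, with a median of -0.12. With 1 array left out the median stayed below 0, from -0.16 without EV 1 to -0.05 without EV 2. It was -0.07 without HOTAIR 1, -0.07 in the deposited table left unscaled and -0.15 with normexp. SMARCD3 had means of 1.51 and 1.18, a log2 difference of -0.33 (95% interval -0.59 to -0.08, limma adjusted p = 0.663), and SMARCE1 had -0.30 (limma adjusted p = 0.725). These and ACTL6A (-0.22) did not overlap between groups, which makes 3 of 15 genes lower, where 3.72% of all genes measured on every array did so. ARID1A (-0.35) and SMARCA2 (-0.31) had wide intervals that cover 0. Both were highest on EV 2, at 0.01 and 0.04, where their other EV arrays read -1.30 to -0.98 and -1.46 to -1.31.

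Of 14 genes known to be silenced by PRC2 in tumour cells, 10 were measured well enough to test, since RUNX3, CDH1 and WIF1 were above background on 0 arrays and BMPR1B on 3. Of these, 8 were well above background on all 7 arrays, while GATA6 and CNR1 passed through the HOTAIR arrays only, with 3 and 2 of 4 EV arrays above background. Over the 8 genes, 4 lay above 0 and the median was 0.02. Over all 10 the median was 0.11, or 0.04 with normexp, 0.05 with quantile normalization, 0.05 without HOTAIR 3, 0.07 without EV 3, 0.19 without HOTAIR 1, 0.22 without EV 2 and 0.19 without both EV 2 and HOTAIR 3. SLIT2, a secreted guidance protein, read -3.90, -3.32, -3.91 and -4.06 on the EV arrays and -3.27, -3.19 and -3.24 on the HOTAIR arrays. All HOTAIR arrays lay above all EV arrays, with EV 2 nearest to them, and the log2 difference was 0.56 (95% interval 0.14 to 0.99, limma adjusted p = 0.638). GATA6, an endoderm transcription factor, read -5.18, -4.96, -4.83 and -5.67 against -4.47, -4.74 and -4.63, a log2 difference of 0.55 (limma adjusted p = 0.765). Since it was admitted by the group in which it read higher, its difference is a description only. DAB2IP had 0.35 (limma adjusted p = 0.787). Among the 8 genes measured on every array, SLIT2 was the 1 whose groups did not overlap. Of all genes measured on every array, 4.04% were higher without overlap, so 1 of 8 is not read as a result about these genes. CDKN2A, a well-known Polycomb target, had -0.14 with an interval from -0.95 to 0.68, and its HOTAIR 3 and EV 2 values were its highest.

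EZH2 level follows proliferation in many tumours, so 17 proliferation genes were set beside it. Of these, 6 lay above 0, and the median log2 difference was -0.07. The median was -0.0007 without EV 2, -0.0059 without HOTAIR 1, -0.04 without HOTAIR 2, -0.11 without HOTAIR 3, -0.04 with normexp and -0.02 in the unscaled table. TOP2A had -0.32 (95% interval -0.60 to -0.04, limma adjusted p = 0.753), PCNA had -0.22 and CDK1 had -0.20. These 3 did not overlap between groups and were lower in ACHN-HOTAIR cells, as were 3.72% of all genes measured on every array. The mean level of the 17 genes was 3.17, 3.29, 3.13 and 3.17 on the EV arrays and 3.08, 3.08 and 3.19 on the HOTAIR arrays. HOTAIR 2, the array with the highest EZH2, was low in this mean, and their relation was not tested.

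**Figure D5:**
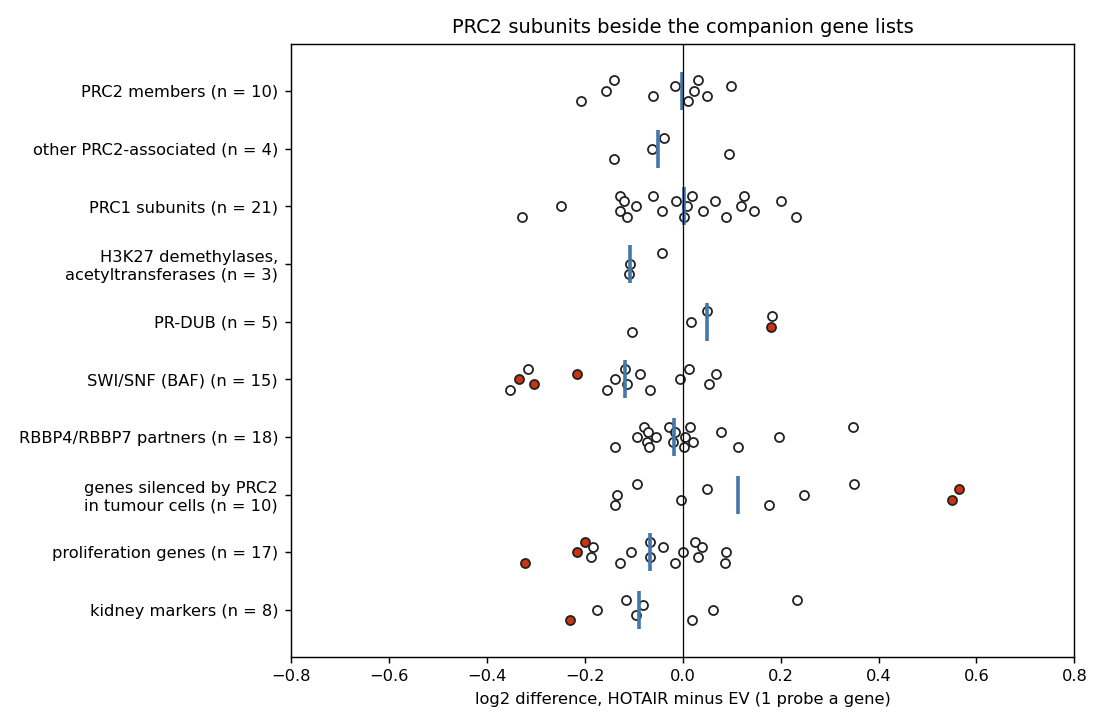
Log2 difference between ACHN-HOTAIR and ACHN-EV cells for the 10 PRC2 members and the genes of the companion lists, 1 probe a gene. Open circles are genes whose groups overlap, filled red circles are genes whose groups do not, and blue bars are list medians. The members lie between -0.21 and 0.10, and SLIT2 (0.56) and GATA6 (0.55) lie farthest to the right.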

How the data were processed

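The authors scanned the 7 arrays and extracted them with Agilent Feature Extraction 10.7.3.1, and deposited for each spot a background-subtracted processed intensity on a linear scale, not scaled between arrays. A deposited table of processed intensities held the same values, with all 440783 cells within 0.498% of the scanner files. Probe coordinates are those of the array annotation (hg19). RefSeq tables (GRCh38.p14) gave gene names, pseudogenes and promoters only.

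Processed intensities were put on a log2 scale, from which each array's 75th percentile over its 58717 non-control spots was subtracted. Between 408 and 600 outlier spots per array were left out, no spot was saturated, and spots of a probe were averaged. Between 48.7% and 52.2% of probes were well above background on an array, and the 20419 probes that were so on all EV or all HOTAIR arrays were tested. The number of arrays limits the precision. HOTAIR was compared with EV by lmFit and eBayes of limma 3.58.1 in R 4.3.3, with p-values adjusted by Benjamini-Hochberg over the 20419 probes and a threshold of 0.05. The brightest tested probe represented a gene. On simulated arrays with 200 changed probes of 20419, this fit recovered 56% of those with a log2 change of 1 and 93% of those with a log2 change of 2. The simulated noise was independent between probes, unlike that of the real arrays. Changes as small as the differences of the members were not simulated. The authors' methods name the rank product and the Mann-Whitney test, which were run as alternatives, the former over 12 array pairs with 100 permutations, together with other background corrections, scalings and filters, each array left out in turn, and a replicate block.

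The members and the companion lists were chosen with earlier results of these data known. Named were all members with every probe, HOTAIR, the 3 genes of each list with the largest absolute difference and any past the threshold, and the 5 genes most like EZH2 over the arrays. ACTL6A, SMARCE1, CDKN2A, genes not above background, and the cell markers PAX8, PAX2, CDH5, PTPRC and PECAM1 were named outside this rule after their values were seen. Figures were drawn with matplotlib.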

Additional observations from a re-analysis of the deposited data

How the results depend on the processing

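Under 18 alternative settings of the limma fit, and by the rank product and the Mann-Whitney test, 0 of the 14 member probes and, where they were run on them, 0 of the companion genes passed the threshold, and the lowest adjusted p of a member was 0.646, without EV 2 and HOTAIR 3. At an unadjusted p of 0.05 the count of members was 0 in all of these fits except without HOTAIR 2, where it was 1 (EZH2, at -0.35). EZH2 stayed below 0 throughout, between -0.35 and -0.10, and so did SUZ12, between -0.21 and -0.10, and RBBP7, while MTF2 stayed above 0. Differences near 0 changed sign with no call attached, and the cause was not tested. With normexp the log2 difference was -0.0066 for AEBP2, -0.054 for EED, -0.0029 for JARID2, 0.017 for PHF19 A_23_P21436, -0.017 for PHF19 A_23_P401904 and 0.027 for RBBP4 A_33_P3338559. With quantile normalization it was 0.0065 for PHF19 A_23_P21436 and 0.0017 for RBBP4 A_33_P3338559, and with the deposited table left unscaled 0.028 for PHF19 A_23_P21436 and 0.028 for RBBP4 A_33_P3338559. Without EV 2 and HOTAIR 3 it was -0.044 for EED, 0.013 for PHF19 A_23_P21436, -0.0022 for PHF19 A_23_P401904 and 0.097 for RBBP4 A_33_P3338559. With the second spot of each pair, an alternative added after the data were seen, JARID2 was at -0.0041. Another probe of the gene gave 0.30 or 0.25 for RBBP4 and -0.014 for PHF19. Leaving out 1 array at a time gave ranges of -0.049 to 0.12 for AEBP2, -0.017 to 0.049 for EED, -0.33 to 0.031 for EZH1, -0.060 to 0.077 for JARID2, -0.088 to 0.074 for PHF19 A_23_P21436, -0.089 to 0.076 for RBBP4 A_33_P3338559 and -0.29 to 0.014 for RBBP4 A_24_P468810. Medians of the companion lists also moved with 1 array left out: -0.12 to 0.02 for the other PRC2-associated proteins, -0.06 to 0.04 for PRC1, -0.29 to 0.07 for the H3K27 enzymes, -0.01 to 0.15 for PR-DUB and -0.07 to 0.04 for the RBBP4 and RBBP7 partners, with no call in any of them.

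The count of all changed probes, 34 in the reported fit, was 12 with normexp, 14 without the filter on dim probes, 22 with probes well above background on all arrays, 20 with trend and robust moderation, 85 by the rank product, 0 by the Mann-Whitney test, which cannot pass with so few arrays, and 9 to 30 with 1 array left out, the lowest of these without EV 1. Same-numbered EV and HOTAIR arrays correlated at 0.386, -0.368 and -0.406 in their deviations from the group means. These values cannot decide whether replicate numbers pair the samples, since the deviations within a group sum to 0. With the replicate number as a block the count of all changed probes was 0, that of members was 0, AEBP2 was at -0.049 and RBBP4 A_33_P3338559 at 0.0086.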
